A study of Mus musculus with 18 samples.

Results

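The comparison set intestine from mice whose diet held St. John's wort (SJW), a herbal remedy for low mood, against intestine from mice fed a control diet, both after injection of azoxymethane (AOM), a carcinogen that induces intestinal tumours in rodents. Its members were the 6 of 18 arrays whose titles give non-tumour tissue after AOM, 3 on the SJW diet (SJW/AOM) and 3 on the control diet (Con/AOM). All mice were male C57BL/6, and both groups received AOM, so the groups differed by diet. The labels call the replicates biological and give no age, dose or time. The other arrays were SJW and control diet after saline (SJW/Sal and Con/Sal) and tumours of both diets after AOM, with 3 arrays each. Each array set 1 sample, in red, against a commercial pool of RNA from other mouse organs and embryos, in green, and values are log2 ratios of sample over pool. A log2 ratio of 0 means the same signal as in the pool, and a difference of 1 between diets is a fold of 2.

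St. John's wort contains hyperforin, an activator of the pregnane X receptor (PXR, encoded by Nr1i2), a nuclear receptor that switches on oxidising enzymes, conjugating enzymes and drug efflux pumps in liver and gut. Azoxymethane is oxidised, largely by Cyp2e1, to a product that alkylates DNA, and the tumours it induces commonly carry activated beta-catenin, the effector of Wnt signalling. Wnt signals keep crypt stem cells dividing and also switch on secreted and intracellular inhibitors of the same pathway.

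The label gives small intestine as the tissue, while the extraction protocol names liver. Cyp2e1, abundant in liver, lay below the pool, with -2.52, -2.37 and -2.13 on the SJW/AOM arrays and -2.24, -2.59 and -2.46 on the Con/AOM arrays. The intestinal transcription factor Cdx2 lay at 4.37 to 4.96 in SJW/AOM and 4.95 to 5.77 in Con/AOM. Lct, the lactase of the small intestine, lay at 0.05 to 0.23 in SJW/AOM and -0.24 to 0.91 in Con/AOM, and Slc2a5, its fructose transporter, lay at -3.90 to -3.09 in SJW/AOM and -3.82 to -3.24 in Con/AOM. Other genes of small intestine lay above the pool. Fabp2, the intestinal fatty acid binding protein, lay at 3.73 to 4.09 in SJW/AOM and 4.19 to 4.97 in Con/AOM, and Sis, the sucrase-isomaltase of the brush border, at 0.37 to 0.51 in SJW/AOM and 0.41 to 0.93 in Con/AOM. The median of 24 enterocyte genes was 0.59, 0.71 and 0.61 in SJW/AOM, against 0.91, 0.60 and 0.91 in Con/AOM. The markers of small intestine were thus mixed against a pool that held no intestine. The median of 17 colon genes was 3.301, 2.67 and 2.312 in SJW/AOM, against 2.917, 3.318 and 2.814 in Con/AOM. On each array it lay above the median of the enterocyte genes. Slc26a3, an exchanger of the colon surface, lay at 4.522 to 5.546 in SJW/AOM and 5.557 to 6.32 in Con/AOM. Which part of the gut gave the samples was not tested. The median red intensity was 133 to 181 in SJW/AOM and 137.5 to 257 in Con/AOM. The median green intensity was 198 to 249 in SJW/AOM and 243 to 593 in Con/AOM, and the highest value was that of Con/AOM 2. Log2 ratios of different arrays correlated at 0.917 to 0.953 within groups and 0.906 to 0.960 between them.

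No gene passed. Of 26073 genes tested with limma, 0 (0%) had an adjusted p under 0.05, and the smallest adjusted p was 1. At an unadjusted p under 0.05 there were 837 genes (3.21%), of which 299 (1.15%) were higher and 538 (2.06%) lower in SJW/AOM. All 3 SJW/AOM arrays lay above all 3 Con/AOM arrays for 897 genes (3.44%), and below them for 1501 genes (5.76%). More than 2-fold differences numbered 59 higher (0.226%) and 52 lower (0.199%). The median difference over all genes was 0.01, with 51.2% of genes above 0 and 48.8% below it. The 95% interval of a gene's difference reached a median of 0.386 to either side, a fold of 1.31. Simulated data of 26073 genes had each gene's fitted spread, with noise drawn independently for each gene and array. Genes were changed by 0.5, 1, 2 or 3 on the log2 scale, 50 at each size. The test recovered 4, 36, 46 and 50 of them, and called 7 unchanged genes. The large planted changes ease the adjusted threshold, and no simulated effect was shared by the genes of 1 array. The recovery therefore may not carry over to these arrays. The genes below are given as values, and none of their differences passed.

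The genes ranked by p had a symbol that is not a clone name. They were well above background on all 3 arrays of either group. Of these genes, Sprr2h had the smallest p of those lower in SJW/AOM. It encodes a small proline-rich precursor of the cornified envelope, the cross-linked protein layer of stratified epithelium, and had 0.69, 0.72 and 0.70 in SJW/AOM, against 1.89, 3.88 and 2.46 in Con/AOM. The groups did not overlap, and the difference was -2.04 ± 0.45 (SE, n = 3 each; limma adjusted p = 1). Sprr1a, a related precursor, had 0.38, 0.33 and 0.31 in SJW/AOM, against 1.480, 1.842 and 1.503 in Con/AOM, a difference of -1.27 ± 0.30. Each SJW/AOM array lay within a narrow band below each Con/AOM array. Krt23, an epithelial keratin outside that family, had -0.09, 0.14 and 0.95 in SJW/AOM, against 1.72, 2.79 and 1.86 in Con/AOM, a difference of -1.79 ± 0.41. Con/AOM 2 was the highest array for all 3 genes. Without it the differences were -1.47 for Sprr2h, -1.15 for Sprr1a and -1.45 for Krt23. The family was looked at because of these values, so it carries no test. Of 13 measured Sprr genes, 8 were lower in SJW/AOM, 4 of them with no overlap (5.76% of all genes), and the median difference was -0.08. Sprr2e, with -0.88, and Sprr2k, with -0.86, were the other 2 with no overlap, and with the red channel alone they differed by -0.22 and -0.43. Sprr2a1 had the highest ratios of the family, at 5.99 to 6.24 in SJW/AOM and 6.12 to 7.96 in Con/AOM, and its groups overlapped. Members of this family are similar in sequence, and signal from one may reach the probe of another.

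**Figure D1:**
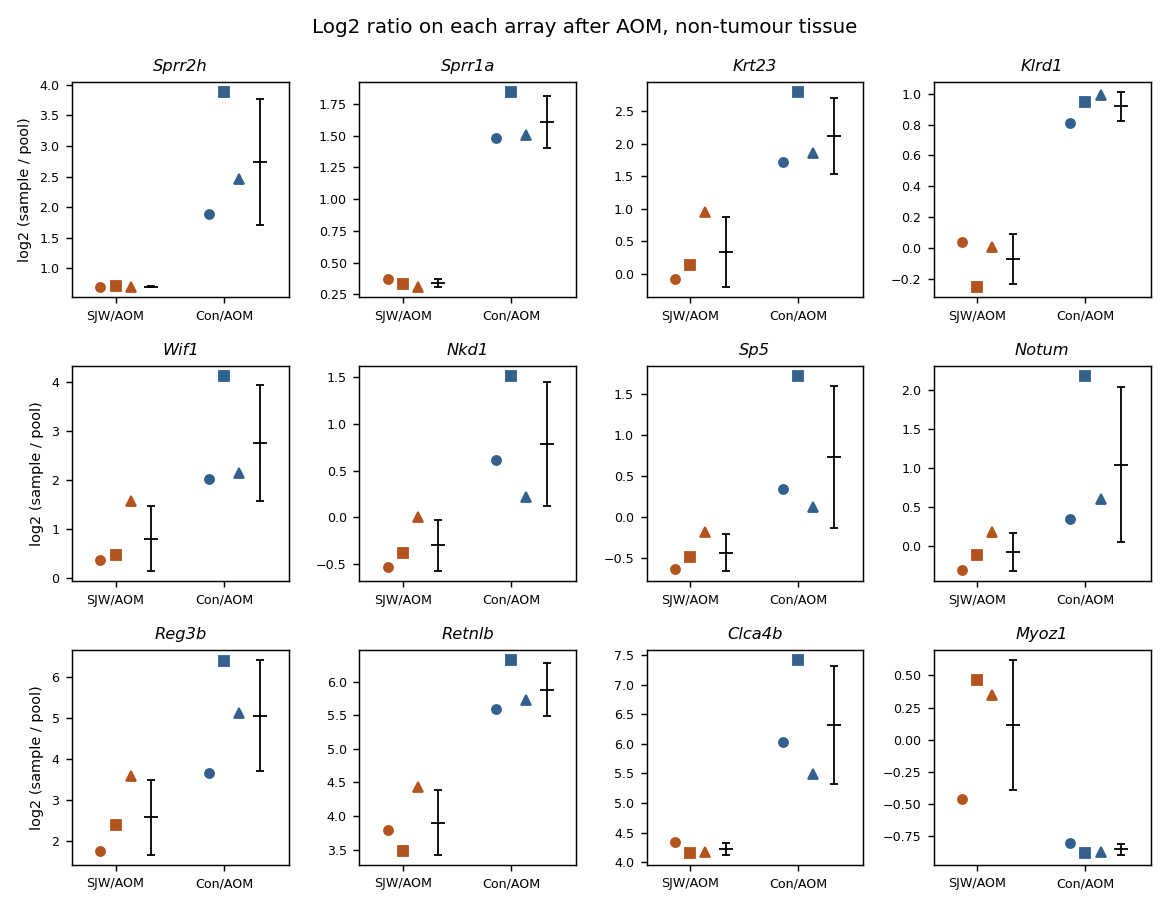
Log2 ratio of sample over pool for 12 genes on each SJW/AOM and Con/AOM array, with the mean and SD of 3 arrays beside them in black; circles, squares and triangles are replicates 1, 2 and 3, and each panel has its own axis. Con/AOM replicate 2 is the highest array for Sprr2h, Sprr1a, Krt23, Wif1, Nkd1, Sp5, Notum, Reg3b, Retnlb and Clca4b, and Myoz1 is higher in SJW/AOM.

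The 250 bases before the starts of Sprr2h and Sprr1a are shown because these genes, both on chromosome 3, had the smallest p-values of their family. They are RefSeq sequences on build GRCm38.p6, read 5′ to 3′ on each gene's own strand, chr3:92385435-92385684 on the plus strand for Sprr2h and chr3:92485882-92486131 on the minus strand for Sprr1a. Capitals mark the AP-1 motif TGANTCA, searched on both strands.
Sprr2h: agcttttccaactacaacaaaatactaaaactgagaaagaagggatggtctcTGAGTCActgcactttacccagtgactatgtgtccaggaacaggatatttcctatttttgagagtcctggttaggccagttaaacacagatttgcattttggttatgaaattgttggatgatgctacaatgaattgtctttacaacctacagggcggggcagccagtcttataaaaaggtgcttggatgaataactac
Sprr1a: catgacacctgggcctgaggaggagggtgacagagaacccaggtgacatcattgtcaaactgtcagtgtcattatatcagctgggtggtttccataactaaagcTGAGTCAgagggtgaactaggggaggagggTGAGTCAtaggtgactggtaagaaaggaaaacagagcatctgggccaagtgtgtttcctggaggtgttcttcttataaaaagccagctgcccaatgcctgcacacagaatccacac
The motif occurred 1 time before Sprr2h and 2 times before Sprr1a, and 6.75% of 32851 promoter windows of this length held it. No match was found before Krt23.

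Among the other genes of smallest p that were lower in SJW/AOM, Klrd1, which encodes the CD94 receptor of natural killer and T cells, had 0.04, -0.26 and 0.00 in SJW/AOM, against 0.81, 0.95 and 0.99 in Con/AOM. The difference was -0.99 ± 0.22, and without Con/AOM 2 it was -0.98. Gtse1, a mitotic protein that restrains p53, had 0.33, 0.14 and 0.28 in SJW/AOM, against 0.90, 1.17 and 0.83 in Con/AOM, a difference of -0.72 ± 0.16. Neither gene's groups overlapped. Mob3b (-0.66 ± 0.16), the histone methylation cofactor Rbbp5 (-0.52 ± 0.13), Ttll12 (-0.46 ± 0.12), the mitochondrial import factor Grpel2 (-0.57 ± 0.15), the autophagy protease Atg4b (-0.50 ± 0.13) and the sialyltransferase St3gal3 (-0.49 ± 0.13) differed by less, also without overlap. Grpel2 differed by -0.50 with the scanner software's ratios and by -0.06 in the authors' values, where another probe may stand for the gene. With the red channel alone Atg4b differed by -0.21 and St3gal3 by -0.31.

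Of the 12 ranked genes higher in SJW/AOM with the smallest p, Myoz1 had the largest difference. Myoz1, a protein of the muscle Z-disc, had -0.46, 0.47 and 0.35 in SJW/AOM, against -0.80, -0.88 and -0.87 in Con/AOM, a difference of 0.97 ± 0.23. The difference of Myoz1 was 2.46 with the red channel alone and 2.15 with the scanner software's ratios and in the authors' values. It was well above background on 3 SJW/AOM arrays and 1 Con/AOM array. The complement component C2 had -1.33, -0.89 and -0.74 in SJW/AOM, against -1.63, -1.55 and -1.79 in Con/AOM, a difference of 0.67 ± 0.20. That difference was 0.66 with the scanner software's ratios and 0.39 in the authors' values, where another probe may stand for C2. Both genes were higher on each SJW/AOM array than on any Con/AOM array. The rest of the 12 were Pacs1 (0.56 ± 0.18), the bile acid ligase Slc27a5 (0.51 ± 0.15), the aromatase Cyp19a1 (0.46 ± 0.14), Rnf13 (0.46 ± 0.14), Mapk8ip2 (0.44 ± 0.14), Hnrnpd (0.42 ± 0.14), Slx1b (0.41 ± 0.13), the fatty acid amide hydrolase Faah (0.38 ± 0.12), Zfp146 (0.37 ± 0.13) and Crybb1 (0.33 ± 0.11). Cyp19a1 was well above background on 1 Con/AOM array and Slc27a5 on 2. With the scanner software's ratios and in the authors' values Cyp19a1 differed by 1.35 and Slc27a5 by 1.20. Pacs1 differed by 0.59 with the scanner software's ratios and by 0.13 in the authors' values, where another probe may stand for it. With the red channel alone Rnf13 (0.15), Mapk8ip2 (0.14), Slx1b (0.11), Faah (0.19) and Crybb1 (0.13) differed by less.

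Wnt targets lay lower in SJW/AOM. Of 27 measured genes of that list, 25 were lower and 2 higher, and 10 were lower without overlap, against 5.76% of all genes. This and the other lists hold only genes with a symbol. Of 16799 such genes, 1146 were lower and 526 higher without overlap. The list's median difference was -0.30, against 0.01 for all genes, and 0 members passed. Of the 27 genes, 24 were well above background on all 3 arrays of either group. The inhibitors stood at the low end. Wif1, which binds Wnt proteins outside the cell, had 0.38, 0.46 and 1.57 in SJW/AOM, against 2.01, 4.13 and 2.14 in Con/AOM, a difference of -1.96 ± 0.58. Nkd1, an intracellular inhibitor, had -0.53, -0.38 and 0.01 in SJW/AOM, against 0.61, 1.51 and 0.22 in Con/AOM, a difference of -1.08 ± 0.29. In both, Con/AOM 2 was the highest array and the groups did not overlap. Notum, an enzyme that inactivates Wnt proteins, had -0.31, -0.11 and 0.18 in SJW/AOM, against 0.35, 2.18 and 0.60 in Con/AOM, a difference of -1.12 ± 0.38. The transcription factor Sp5, a direct target, had -0.64, -0.48 and -0.19 in SJW/AOM, against 0.35, 1.73 and 0.12 in Con/AOM, a difference of -1.17 ± 0.32, and of -2.01 with the scanner software's ratios. Axin2, a scaffold of the complex that destroys beta-catenin, differed by -0.56 ± 0.28, and the stem cell receptor Lgr5 by -0.73 ± 0.36, both without overlap. Myc lay at -0.04 ± 0.27. Without Con/AOM 2 the list's median was -0.18, with 21 of 27 genes lower. The differences were then -1.27 for Wif1, -0.72 for Nkd1, -0.55 for Notum, -0.67 for Sp5, -0.25 for Axin2 and -0.35 for Lgr5, while Myc was higher by 0.14.

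The sequence before Sp5 is shown as that of a direct Wnt target, at chr2:70474673-70474922 on the plus strand of GRCm38.p6 (RefSeq). Capitals mark the TCF core motif CTTTGA, searched on both strands.
Sp5: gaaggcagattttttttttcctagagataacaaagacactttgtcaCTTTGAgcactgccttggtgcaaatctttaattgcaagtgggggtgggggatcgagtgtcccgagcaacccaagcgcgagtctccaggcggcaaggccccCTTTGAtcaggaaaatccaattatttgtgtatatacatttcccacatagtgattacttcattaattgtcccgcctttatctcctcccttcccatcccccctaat
The motif occurred 2 times there, and 13.8% of 32851 promoter windows of 250 bases held it. No match was found in the windows of Nkd1, Wif1 and Axin2.

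Genes of the cells that secrete into the crypt were also lower. Of 12 measured genes of the Paneth cell list, which make antimicrobial proteins at the crypt base, 11 were lower in SJW/AOM, 5 without overlap (against 5.76% of all genes), with a median of -0.96 and 0 passing. Reg3b, a lectin that binds bacteria, had 1.768, 2.398 and 3.576 in SJW/AOM, against 3.67, 6.38 and 5.12 in Con/AOM, a difference of -2.48 ± 1.30. Reg3g, its close relative, had -0.91, -0.53 and 0.48 in SJW/AOM, against 1.07, 2.95 and 2.28 in Con/AOM, a difference of -2.42 ± 1.20. The groups did not overlap in either gene, although SJW/AOM 3 (3.58) and Con/AOM 1 (3.67) lay close together for Reg3b. Mmp7, a protease that matures defensins in mice, had 0.14, 0.84 and 1.62 in SJW/AOM, against 1.91, 2.45 and 2.92 in Con/AOM, a difference of -1.56 ± 0.54. Defa23, a defensin, had 2.04, 2.94 and 3.71 in SJW/AOM, against 4.41, 4.81 and 3.20 in Con/AOM, and its groups overlapped. Lyz1, the Paneth cell lysozyme, was the 1 member higher in SJW/AOM, by 0.27 ± 0.39 with overlap. Lyz1 lay below the pool on all 6 arrays, at -2.22 to -0.77 in SJW/AOM and -2.30 to -1.18 in Con/AOM. Within slides, which each held 1 array of each group, the list's median difference was -0.98 on slide 1, -1.61 on slide 2 and 0.21 on slide 3. Without Con/AOM 2 the list's median was -0.76, with 10 of 12 genes lower, and Reg3b differed by -1.81. The probes of defensins of similar sequence may share signal. In bulk tissue, fewer cells of a type and less RNA per cell cannot be told apart.

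Of 15 goblet cell genes, 14 were lower, 4 without overlap (5.76% of all genes were lower without overlap), with a median of -0.34. Retnlb, a goblet cell protein induced by bacteria and by type 2 cytokines, had 3.79, 3.48 and 4.43 in SJW/AOM, against 5.59, 6.32 and 5.72 in Con/AOM, a difference of -1.98 ± 0.67. All SJW/AOM arrays were lower, but with the scanner software's own ratios and in the authors' values the difference of Retnlb was -0.48. Muc2, the main secreted mucin, had 7.26, 7.14 and 7.80 in SJW/AOM, against 7.74, 7.89 and 7.55 in Con/AOM, and the groups overlapped. Agr2, a chaperone needed for mucin folding, differed by -0.63 ± 0.31, and by -0.33 without Con/AOM 2. Without Con/AOM 2 the goblet median was -0.21, with 11 of 15 genes lower. Of 17 colon genes 11 were lower and 6 higher, with a median of -0.32. In the authors' values 5 of 12 were lower, with a median of 0.11. Prap1 was higher by 1.09 ± 0.87, with overlap, and the genes named next were lower. Clca4b had 4.35, 4.16 and 4.17 in SJW/AOM, against 6.03, 7.42 and 5.50 in Con/AOM, a difference of -2.09 ± 0.73, and of -1.13 with the scanner software's ratios. Slc26a3, the chloride and bicarbonate exchanger of the colon surface, differed by -1.08 ± 0.38, but by 0.12 with those ratios. The large intestinal carbonic anhydrase Car1 differed by -0.81 ± 0.60, with overlap.

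**Figure D2:**
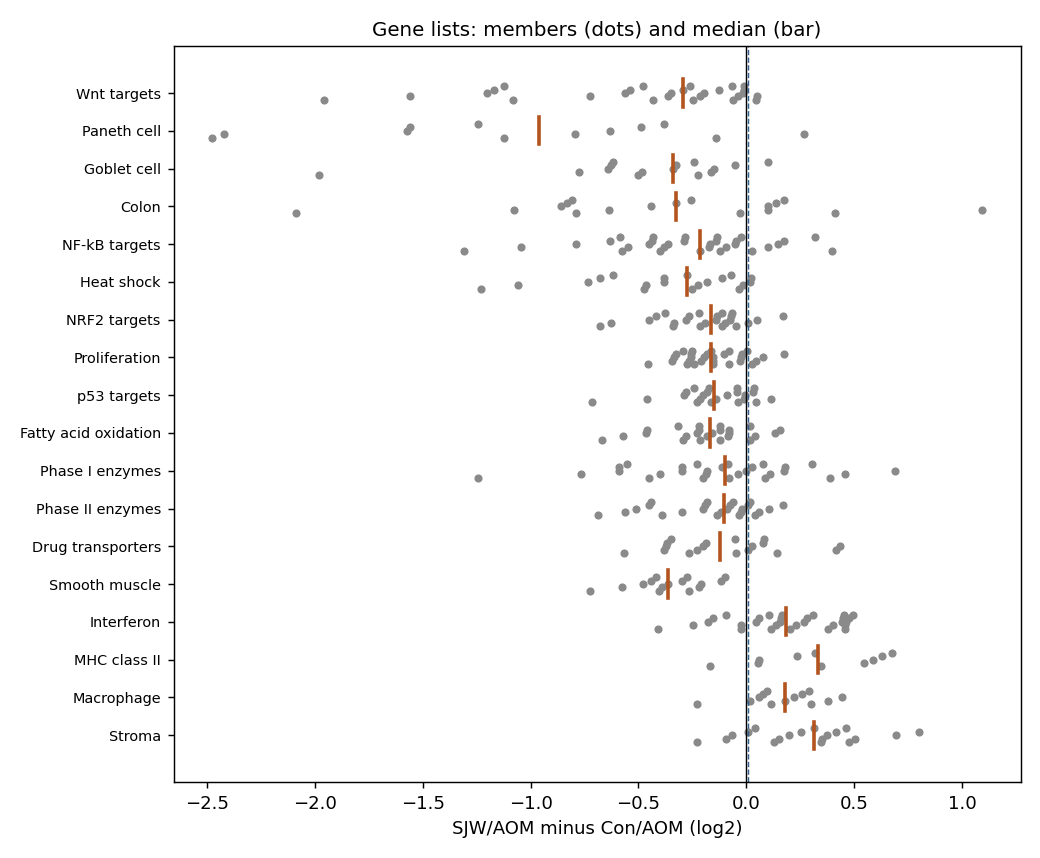
Difference of SJW/AOM minus Con/AOM, in log2, for each measured member of 18 gene lists (grey dots, spread vertically for legibility), with the median of each list as a bar and the median of all 26073 genes as a dashed line. The Paneth cell list has the lowest median, -0.96, and 25 of 27 Wnt targets lie below 0.

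Of 31 NF-kB and inflammatory genes, 25 were lower in SJW/AOM, 3 without overlap, where 5.76% of all genes were lower without overlap, and the median was -0.21. Nos2, the inducible nitric oxide synthase, had 0.32, 1.20 and 0.71 in SJW/AOM, against 1.09, 2.71 and 1.56 in Con/AOM, a difference of -1.05 ± 0.35 with overlap. The neutrophil chemokine Cxcl5 had -0.17, 0.70 and 0.46 in SJW/AOM, against 0.28, 2.31 and 2.32 in Con/AOM, a difference of -1.31 ± 0.56 with overlap. Tnf differed by -0.45 ± 0.29, Ptgs2, the inducible cyclooxygenase, by -0.43 ± 0.34, and Il1b by 0.15 ± 0.35. Without Con/AOM 2 the list's median was -0.07, with 23 of 31 genes lower, and Nos2 differed by -0.58. Heat shock genes were highest on that array: their median was -0.39, -0.13 and -0.44 in SJW/AOM, against -0.10, 0.52 and -0.25 in Con/AOM. In SJW/AOM 17 of 19 were lower, with a median difference of -0.28. With Con/AOM 2 left out it was -0.14, and 14 of 19 were lower. Hspa1a, an inducible chaperone, lay at 1.81 on Con/AOM 2 and below 0 on the other 5 arrays. With the brightness of the green channel as a block, the median was -0.21 for Wnt targets and -0.81 for Paneth cell genes. It was -0.17 for NF-kB and inflammatory genes and -0.26 for heat shock genes. The part of this array, of its heat shock genes and of its bright green channel in the results above was not tested beyond these values and those given without the array.

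Of the genes that PXR is known to switch on, 0 passed after AOM, and several lay near 0. Cyp3a11, the classic PXR target of mouse liver, had 0.02, -0.42 and -0.03 in SJW/AOM, against -0.31, 0.04 and -0.42 in Con/AOM, a difference of 0.08 with a 95% interval of -0.46 to 0.63. Abcb1a, a drug efflux pump, had 2.88, 2.18 and 2.47 in SJW/AOM, against 2.66, 2.80 and 2.87 in Con/AOM, a difference of -0.27 with an interval of -0.89 to 0.35. The groups overlapped in both genes. The difference was 0.14 (-0.56 to 0.84) for its paralogue Abcb1b, 0.18 (-0.94 to 1.30) for the carboxylesterase Ces2a, -0.51 (-1.57 to 0.55) for the glucuronosyltransferase Ugt1a1 and 0.69 (-0.32 to 1.70) for the oxidase Cyp2c55. The intervals of the last 3 include differences of more than 1 in size. Cyp3a13 had 4.37, 3.87 and 3.69 in SJW/AOM, against 4.83, 4.70 and 4.68 in Con/AOM, and Cyp2c65 had 2.08, 1.92 and 2.47 in SJW/AOM, against 3.23, 2.94 and 4.03 in Con/AOM. These 2 were lower without overlap, by -0.77 ± 0.41 and -1.24 ± 0.85, but Cyp3a13 differed by -0.26 with the scanner software's ratios and in the authors' values. Nr1i2 itself differed by -0.30 ± 0.34. Of 28 phase I enzymes 10 were higher and 18 lower (median -0.10), of 24 phase II enzymes 6 and 18 (median -0.11), and of 18 drug transporters 7 and 11 (median -0.12). Cyp2e1 differed by 0.09 ± 0.15.

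After saline, on other arrays, the difference of SJW minus control diet was 1.33 ± 0.29 for Abcb1a, 1.59 ± 0.53 for Ces2a, 1.504 ± 0.50 for Ugt1a1, 1.80 ± 0.48 for Cyp2c55 and 0.02 ± 0.26 for Cyp3a11. Of 26073 genes, 0 passed there (smallest adjusted p 0.0851). The difference between the diet differences, AOM minus saline, was -1.60 ± 0.41 for Abcb1a (limma adjusted p = 0.476) and -2.02 ± 0.70 for Ugt1a1 (limma adjusted p = 0.507). For Akr1b8, an aldo-keto reductase controlled by NRF2, it was -1.36 ± 0.23 (limma adjusted p = 0.476). Over all genes 0 passed (0%), and 2457 (9.42%) had an unadjusted p under 0.05. In tumours the SJW difference was -0.23 ± 0.29 for Abcb1a and -0.69 ± 0.53 for Ces2a. The difference of non-tumour minus tumour effects called 0 genes (0%), with 1085 (4.16%) at an unadjusted p under 0.05 and a smallest adjusted p of 1.

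**Figure D3:**
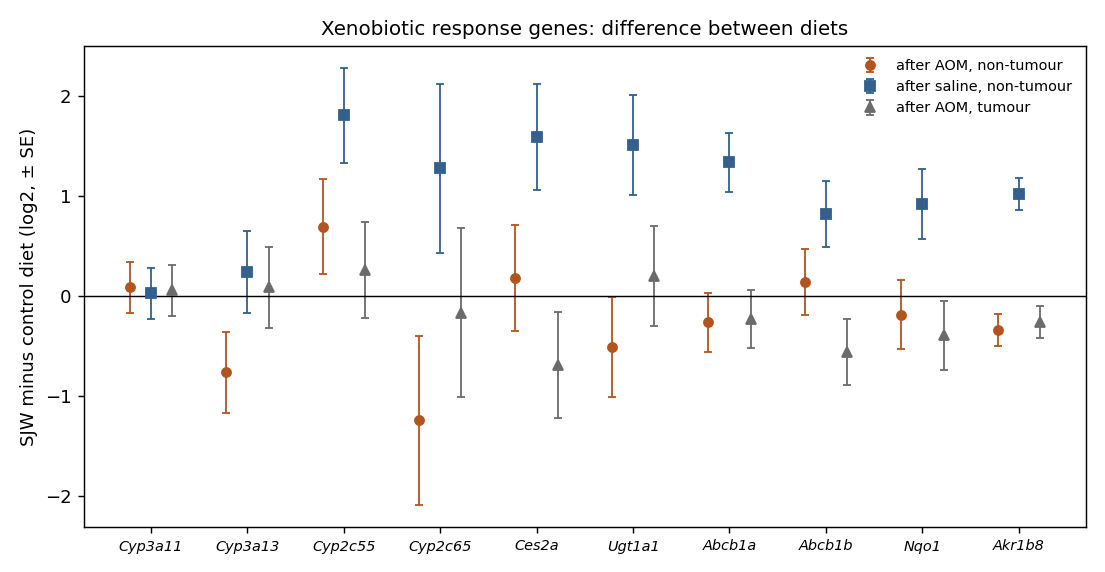
Difference of SJW minus control diet, in log2 with SE, for 10 xenobiotic response genes in non-tumour tissue after AOM (circles), in non-tumour tissue after saline (squares) and in tumours after AOM (triangles), from 3 arrays per group. Abcb1a lies at -0.27 after AOM and 1.33 after saline.

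NRF2, a transcription factor that answers oxidants, controls antioxidant genes, and of 24 measured targets 21 were lower in SJW/AOM, 5 without overlap (5.76% of all genes), with a median of -0.17. The 5 include Slc7a11 (-0.68), which was well above background on 0 SJW/AOM arrays and 1 Con/AOM array. Txnrd1, thioredoxin reductase, had 0.98, 1.11 and 0.97 in SJW/AOM, against 1.31, 1.53 and 1.49 in Con/AOM, a difference of -0.42 ± 0.12 without overlap. Gpx2, the intestinal glutathione peroxidase, differed by -0.63 ± 0.28, Akr1b8 by -0.34 ± 0.16 and the quinone reductase Nqo1 by -0.19 ± 0.34, all with overlap. Of 24 fatty acid oxidation genes 19 were lower, 6 without overlap (5.76% of all genes), with a median of -0.17. Slc25a20, the carnitine carrier of mitochondria, had 1.24, 1.09 and 1.26 in SJW/AOM, against 1.94, 1.77 and 1.88 in Con/AOM, a difference of -0.67 ± 0.18, and -0.71 without Con/AOM 2. Of 29 proliferation genes 24 were lower, 5 without overlap (5.76% of all genes), with a median of -0.16, while Mki67 differed by -0.21 ± 0.21. Of 22 p53 targets 18 were lower, with a median of -0.15, and of -0.03 without Con/AOM 2. Immediate early and clock genes gave small differences with overlap: Fos, a subunit of AP-1, differed by 0.50 ± 0.37, Egr1 by 0.30 ± 0.23, the ERK phosphatase Dusp6 by -0.01 ± 0.15 and the clock output gene Dbp by 0.27 ± 0.18. The iron-binding protein Lcn2 differed by -0.59 ± 0.64 (-1.23 with the scanner software's ratios) and the ileal bile acid binding protein Fabp6 by 0.23 ± 0.58, also with overlap.

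Of 10 measured MHC class II genes, which present peptides to helper T cells, 9 were higher in SJW/AOM, with a median of 0.33. None was higher without overlap, where 3.44% of all genes were. Cd74, the invariant chain, had -0.22, -0.22 and 0.90 in SJW/AOM, against 0.00, -0.65 and -0.92 in Con/AOM, a difference of 0.68 ± 0.30. H2-Aa, a class II alpha chain, had -0.28, -0.54 and 0.93 in SJW/AOM, against -0.08, -0.95 and -0.73 in Con/AOM, a difference of 0.63 ± 0.36. SJW/AOM 3 was the highest array for both, and the other arrays overlapped. Within slides, which each held 1 array of each group, the list's median difference was -0.19 on slide 1, -0.02 on slide 2 and 0.96 on slide 3. Without SJW/AOM 3 the median was 0.14, and Cd74 differed by 0.30. Without Con/AOM 3 the median was 0.16. After saline the Cd74 difference was -1.36 ± 0.30, and AOM minus saline was 2.04 ± 0.43 (limma adjusted p = 0.476). Of 30 interferon-stimulated genes 23 were higher, 0 without overlap against 3.44% of all genes (median 0.18, 0.04 without SJW/AOM 3 and 0.06 without Con/AOM 3). Of 13 macrophage genes 12 were higher, 0 without overlap against 3.44% of all genes (median 0.18, and -0.09 without SJW/AOM 3).

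SJW/AOM 3 also held pancreatic transcripts. The median of 18 measured pancreatic acinar genes was -1.18, -1.15 and 3.88 in SJW/AOM, against -1.07, -1.64 and -0.74 in Con/AOM. Amy2a5, pancreatic amylase, had -1.54, -1.23 and 5.21 in SJW/AOM, against -1.88, -2.61 and -1.32 in Con/AOM, and Pnlip, pancreatic lipase, had -2.09, -2.04 and 4.15 in SJW/AOM, against -2.39, -3.33 and -1.80 in Con/AOM. The list's median difference of 1.59 was 0.10 without SJW/AOM 3. Smooth muscle genes were low on the same array, with a median of 1.64, 2.77 and 0.21 in SJW/AOM, against 2.32, 2.46 and 0.91 in Con/AOM, and the list's difference of -0.36 was 0.24 without it. That difference was -0.94 without SJW/AOM 2, -0.03 without Con/AOM 2 and -0.85 without Con/AOM 3. Myh11, the myosin heavy chain of smooth muscle, differed by -0.72 ± 0.78, and by 0.11 without SJW/AOM 3. Stromal matrix genes were high on SJW/AOM 2, with medians of -0.92, 0.21 and -0.85 in SJW/AOM, against -0.68, -0.66 and -0.95 in Con/AOM. There Col1a1, a chain of type I collagen, had -0.04, against -2.48 and -1.76 on the other SJW/AOM arrays. The part of these tissue differences in the other results was not tested. Without SJW/AOM 3 the list medians were -0.37 for Wnt targets and -1.22 for Paneth cell genes, and without Con/AOM 2 they were -0.18 and -0.76. Leaving out 1 array does not address the tissue content of the others.

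**Figure D4:**
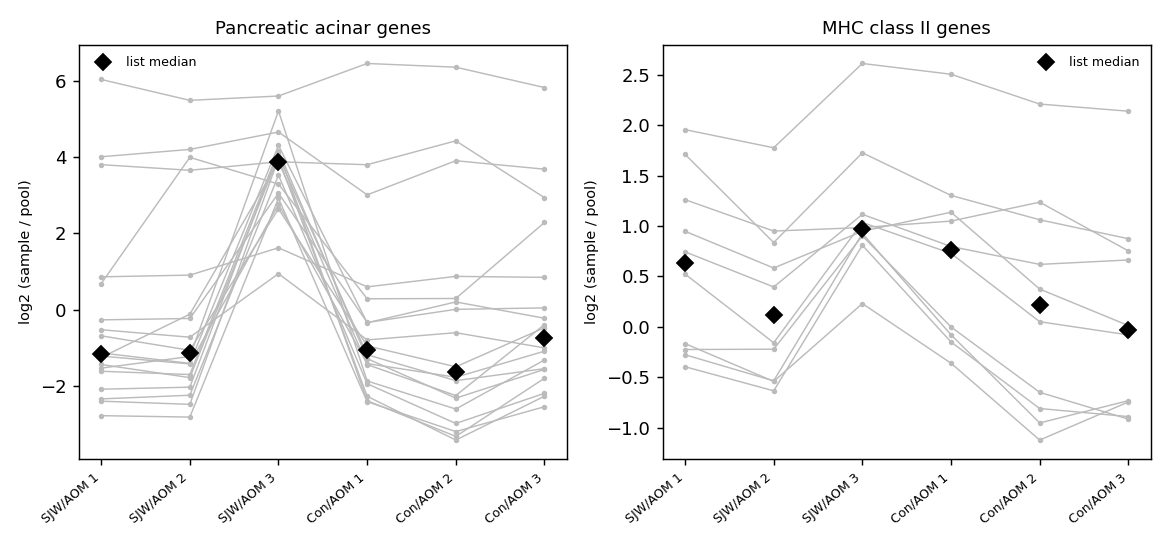
Log2 ratio of sample over pool on each of the 6 arrays for 18 pancreatic acinar genes (left) and 10 MHC class II genes (right); grey lines join the values of 1 gene and diamonds are list medians. The acinar median is 3.88 on SJW/AOM 3 and below 0 on the other 5 arrays.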

How the data were processed

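RNA of 18 intestine samples in 6 groups of 3 was hybridised to two-colour Agilent arrays, with the sample in Cy5, a commercial RNA pool in Cy3 and no dye swap, per the labels. Groups were taken from the titles. The deposited intensity values are, per the file headers, median spot and background intensities from Agilent Feature Extraction (version 10.10.1.1), whose log10 ratio is red over green. The mean intensity had been planned as input and the median took its place. The authors' deposited log2 values, which their table lists per array, equal the log2 ratio of the processed signals (35399 probes, slope 1 and r 1 on each array), so scale and direction are settled. Their medians on the 6 arrays were 0.11, 0.129 and -0.031 (SJW/AOM) and 0.103, 0.206 and 0.053 (Con/AOM).

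Background was corrected with normexp (offset 50) and log2 ratios were normalized by loess within arrays in limma 3.58.1 (R 4.3.3, data.table, version 1.17.8), leaving out 1639 control spots of 45018 and population outliers. Spots of a probe were averaged. A probe was kept (34081 of 41174) where any group had its red signal well above background on each of 3 arrays, and the brightest probe stood for a gene. Of all probes, 27050 had 1 RefSeq symbol (GRCm38.p6) and 14124 none. All 18 arrays entered 1 fit (lmFit and eBayes, 12 residual degrees of freedom), with Benjamini-Hochberg adjustment and 0.05 as the threshold. Standard errors come from this fit. Replicates 1 to 3 of non-tumour groups lay on slides 1 to 3, scanned on day 1. The number of arrays limits the precision.

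Named genes were the 12 higher and 12 lower of smallest p, extremes of gene lists and a set list. They were taken from genes with a symbol that is not a clone name, well above background on all 3 arrays of either group. Cyp2b10, Mgmt and Il6 were not well above background on all 3 arrays of either group. The text leaves out some list extremes and names other list members for their roles, and a few named genes are not reported here. The members and lists were chosen with earlier results of these data known. The test was checked on simulated data. Other normalizations, filters, blocks and sets of arrays were tried. In the authors' values the brightest kept probe with a value on every array stood for a gene, which may differ from the probe used elsewhere.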

Additional observations from a re-analysis of the deposited data

How the results depend on the processing

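In all 51 combinations of the 3 tests with the alternatives, the count of genes passing stayed at 0. For SJW/AOM against Con/AOM the smallest adjusted p was 0.193 with the red channel alone, 0.345 from the authors' log2 values and 0.376 from the scanner software's ratio. The count at an unadjusted p under 0.05 was 232 with arrays centred on their median and 593 to 1367 when 1 array was left out. With the replicate number as a block, 0 genes passed and 767 had an unadjusted p under 0.05. Same-numbered arrays deviated together with r of 0.000186, 0.141 and 0.0697, so the numbers were not taken to pair the samples.

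Some list medians moved. Phase I enzymes were at -0.18 (median centring), -0.21 (scanner ratio), -0.22 (authors' values) and -0.18 to -0.05 with 1 array left out. Drug transporters were at -0.04 (red channel), -0.22 (scanner ratio) and -0.26 (authors' values). NRF2 targets were at -0.29 (median centring), -0.28 (red channel), -0.23 (scanner ratio) and -0.24 to -0.13 with 1 array left out. Colon genes were at 0.11 from the authors' values, and enterocyte genes at -0.17 to 0.00 with 1 array left out.

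Some differences changed sign. With the red channel alone these were Abcb1a (0.24), Cyp2e1 (-0.06), Cyp3a11 (-0.06), Myc (0.48), Nr1i2 (0.09) and Ugt1a1 (0.10). From the scanner ratio and from the authors' values they were Cyp2e1 (-0.01 in both) and Slc26a3 (0.12 in both). Abcb1b was at -0.02 from the authors' values, where another probe may stand for it, and at 0.25 from the scanner ratio. With reference brightness as a block it was Myc (0.11). With 1 array left out, the range was -0.16 to 0.40 for Abcb1b, -0.09 to 0.41 for Ces2a, -0.02 to 0.18 for Cyp2e1, -0.01 to 0.22 for Cyp3a11, -0.16 to 0.09 for Dusp6, -0.22 to 0.52 for Fabp6, -0.16 to 0.32 for Il1b, -0.13 to 0.60 for Lyz1, -0.17 to 0.14 for Myc, -1.32 to 0.11 for Myh11 and -0.63 to 0.02 for Nr1i2. The cause was not tested.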
